A study of Mus musculus with 6 samples.

Results

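The genes described here encode 6 families of enzymes that take part in detoxification: the glutathione transferases (Gst), carboxylesterases (Ces), flavin-containing monooxygenases (Fmo), aldehyde oxidases (Aox), sulfotransferases (Sult) and epoxide hydrolases (Ephx). The set was picked with earlier results of these data known, and within it genes were taken by name. Every gene annotated as protein-coding whose symbol began with Gst followed by a class letter (a, m, p, t, o, k or z) and a number, or with Ces, Fmo, Aox, Sult or Ephx and a number, was taken, which gave 75 of the 46983 genes in the table (21930 of them protein-coding). There were 21 Gst, 20 Ces, 19 Sult, 7 Fmo, 4 Aox and 4 Ephx genes. RNA was sequenced from aortic valves of wild type C57BL/6J mice, with no treatment named in the labels, and 3 libraries stood for newborn mice (postnatal day 2, PND2) and 3 for adults (4 months old). Each library came from the pooled valves of 5 to 6 mice, so the spread between libraries is a spread between pools and not between mice. A difference between the ages in whole valves can come from a different number of cells of a type or from a different amount of RNA per cell, and these data cannot tell the 2 apart. Expression is given as RPKM, reads scaled by exonic length and library size, so levels can be compared between genes.

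These families handle compounds that are reactive or poorly soluble in water, both foreign substances and products of the cell's own metabolism. Monooxygenases and aldehyde oxidases add oxygen, carboxylesterases and epoxide hydrolases split esters and epoxides with water, and glutathione transferases and sulfotransferases then attach glutathione or sulfate, which makes the product easier to export. They are best known from the liver, but several also act in blood vessels and connective tissue on oxidised lipids, on fatty acid epoxides that regulate vessel tone, and on stored triglyceride.

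The libraries held 23810507 to 38994657 reads by the totals behind the RPKM values, so 1 read on 1 kb of exon was worth 0.0256 to 0.0420 RPKM, and mitochondrial genes took 5.44 to 9.60% of the reads on genes. The reads on genes added up to 2.31 to 2.36 times these totals. Whether a read was counted at more than 1 gene, or the totals hold pairs, was not tested. Pearson's correlation across genes was 0.961 to 0.970 between libraries of an age and 0.911 to 0.922 between the ages. The label of the tissue was set against marker genes. Valve interstitial markers, summed over 10 genes, ran from 6228 to 6720 RPKM at PND2 and from 7772 to 9803 RPKM at 4 months, with 2 of the 10 called higher and 5 lower, and no gene of that list was at 0. Other cell types were also represented. Summed cardiomyocyte markers ran from 15978 to 19534 RPKM at PND2 and from 5343 to 9793 RPKM at 4 months (4 of 8 called lower), and endothelial markers from 486 to 674.5 RPKM and from 259 to 274 RPKM (8 of 8 lower). Smooth muscle markers ran from 7155 to 8251 RPKM and from 16386 to 27405 RPKM (5 of 6 higher), and macrophage markers from 261 to 288 RPKM and from 906 to 961 RPKM (6 of 8 higher). Hepatocytes are the cells best known for these enzymes. Alb, which encodes serum albumin, was between 0 and 0.35 RPKM in all 6 libraries, and Apob was at 0 in every PND2 library and Fga in every 4 month library. The summed hepatocyte markers, nearly all of which were Ahsg, ran from 136 to 241 RPKM at PND2 and from 49.1 to 66.2 RPKM at 4 months (4 of 6 tested called lower and 0 higher). The part of these cell types in the differences described next was not tested.

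Transcripts of these enzymes were more abundant in the adult than in the newborn valve. The RPKM of the 75 genes summed to 1085, 905 and 1007 in the PND2 libraries and to 2626, 2123 and 2262 in the 4 month libraries, a 2.34-fold higher mean, and the groups did not overlap. Of the 75 genes, 14 had no reads in any library (Fmo9, Gstt4 and 12 Sult genes), and 9 more (Aox2, Aox4, Ces1c, Ces2a, Ces3a, Ces3b, Ces4a, Sult1d1 and Sult1e1) fell short of the minimum for testing, an RPKM of at least 0.1 in 3 libraries. For the other 52, adult and newborn levels were set against each other in limma, on the scale log2(RPKM + 0.1), in a fit over all 25903 genes that met this minimum, and a gene was called when its Benjamini-Hochberg adjusted p was under 0.05. Higher levels at 4 months were called for 30 of the 52, and a lower level for 1, Ephx2. Over all genes tested, 14.7% were called higher and 21.1% lower, and over protein-coding genes 18.6% and 23.6%. With a fold change over 2 as well, 27 were higher and 1 lower, against 8.72% and 8.47% of all genes tested and 10.4% and 9.29% of the protein-coding ones. In 33 genes all 3 adult libraries lay above all 3 newborn libraries, and in 3 (Ephx2, Gsta4 and Fmo4) below them, while over all genes tested these were 20.0% and 29.9%, and over protein-coding genes 24.9% and 32.9%. A per-gene unequal-variance test, which does not borrow spread from other genes, called 18 higher and none lower. The median log2 fold change (4 months minus PND2) was 1.10 over the 52 genes and -0.14 over all genes tested. Scaling each library to its median moved the latter to -0.02, and changed the call of none of the 36 genes that had a mean of at least 5 RPKM or were called with a fold over 2. Setting the 3 genes without any PND2 read to their lower bound left the median of the 52 at 1.10. The minimum for testing had a part in these counts, since 7 of the 52 genes met it through the 4 month libraries alone (Ces1a, Ces1b, Ces1f, Ces1g, Ces1h, Fmo6 and Sult2b1) and 6 of these were called higher. These 6 all had a fold over 2 as well. For all 7 the minimum itself placed the 3 adult libraries above the 3 newborn ones, so they are among the 33 by construction. Of the 45 others, 24 were called higher and 1 lower.

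**Figure D1:**
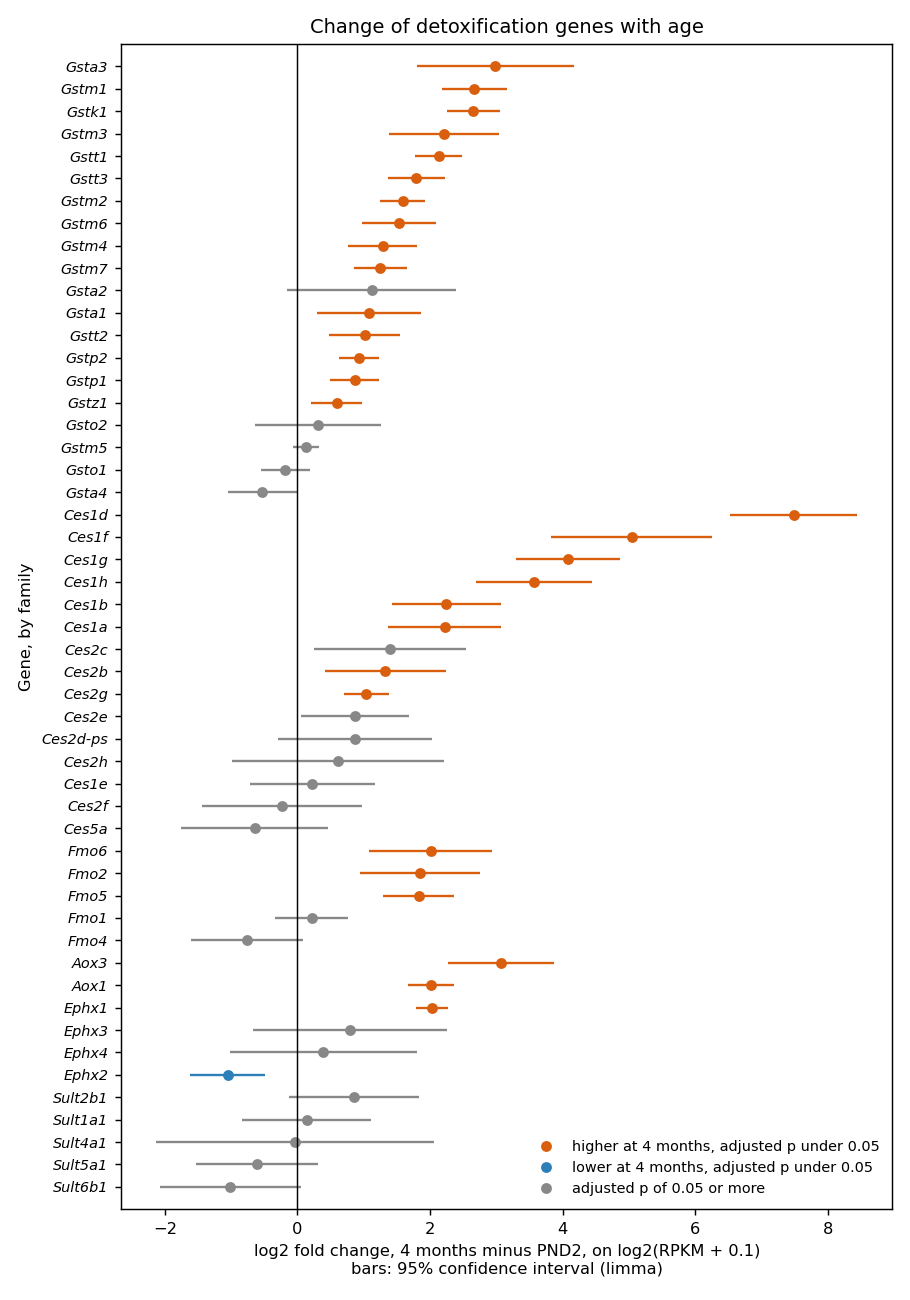
Log2 fold change of the tested genes described in the text, 4 months minus PND2, on the scale log2(RPKM + 0.1), with 95% confidence intervals from limma and genes ordered by family and size. Most intervals of the Gst, Ces1, Fmo and Aox genes lie to the right of 0, Ephx2 is the called gene to the left, and no interval of the Sult genes lies clear of 0.

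The order of the levels changed with age. At PND2 the highest means were those of Gstp1, Ephx2, Gstm1, Gstm5, Gsta4 and Gstm2, and at 4 months those of Gstm1, Gstp1, Ephx1, Fmo2, Gstm2 and Gstp2. Ephx2 went from rank 2 to rank 10 and Gsta4 from rank 5 to rank 13, while Ces1d came from rank 37 to rank 9. In all, 26 genes reached a mean of 5 RPKM at one of the ages, and 39 of the 75 stayed under 1 RPKM at both.

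Gstm1, the most abundant of these genes at 4 months, and Gstm5, the mu class gene with the smallest change, lie in 1 cluster on chromosome 3. To show how the starts of these genes differ, promoter sequences from RefSeq (GRCm38.p6, the same coordinates as mm10) were read for the members. Entries were found for 61 of the 75 genes, with 75 start sites, each from 250 bases before to 50 bases after the start. Ces1d, Ces1f, Ces2b, Ces2d-ps, Ces3a, Ephx2, Fmo1, Gsta4, Gstt2, Sult2a1, Sult2a2, Sult2a7 and Sult4a1 were among those with none. They were searched on both strands for TGACNNNGC, the core to which Nrf2, the regulator of the antioxidant response, binds, and for GCGTG, the core bound by the aryl hydrocarbon receptor. The first was present in 3 of the 75 (4.0%), against 12.4% of all 32851 promoters, and the second in 14 of the 75 (18.7%), against 32.4%. Among the promoters of members called higher at 4 months these were 2 of 34 (5.88%) and 6 of 34 (17.6%). Windows of the same gene can overlap and are not independent. Both Gstm1 windows held the same GCGTG, so it was counted at each. The 3 promoters with TGACNNNGC belonged to Gsta3 and Gstm7, which rose, and to Gstm5, which was not called by limma. The stretches shown are the 250 bases before the RefSeq start site (the most upstream one where there are several) of Gstm1 at chr3:108017974-108018223 on the minus strand, of Gstm7 at chr3:107931818-107932067 on the minus strand, of Gstm5 at chr3:107895604-107895853 on the plus strand, and of Gsta3 at chr1:21240335-21240584 on the plus strand. Capitals mark matches to either core.
Gstm1: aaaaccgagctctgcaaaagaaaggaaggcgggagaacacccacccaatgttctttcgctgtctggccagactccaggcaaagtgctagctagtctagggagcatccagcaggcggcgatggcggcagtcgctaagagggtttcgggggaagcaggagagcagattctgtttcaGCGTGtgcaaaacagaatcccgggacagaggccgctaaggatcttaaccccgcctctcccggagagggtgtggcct
Gstm7: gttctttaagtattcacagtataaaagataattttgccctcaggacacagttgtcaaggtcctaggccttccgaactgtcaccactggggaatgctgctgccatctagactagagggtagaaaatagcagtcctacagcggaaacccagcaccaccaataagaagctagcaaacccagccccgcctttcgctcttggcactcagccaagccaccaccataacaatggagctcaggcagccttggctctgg
Gstm5: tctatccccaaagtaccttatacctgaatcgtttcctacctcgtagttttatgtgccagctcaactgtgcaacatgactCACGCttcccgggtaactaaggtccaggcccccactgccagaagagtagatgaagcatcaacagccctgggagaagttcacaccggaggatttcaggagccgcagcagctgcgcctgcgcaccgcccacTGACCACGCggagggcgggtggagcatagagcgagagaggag
Gsta3: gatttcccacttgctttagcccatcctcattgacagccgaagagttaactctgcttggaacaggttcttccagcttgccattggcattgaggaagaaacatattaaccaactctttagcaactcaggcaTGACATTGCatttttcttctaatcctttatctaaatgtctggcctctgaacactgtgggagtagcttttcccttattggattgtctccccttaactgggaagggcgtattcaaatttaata
Gstm1 held 1 GCGTG, 76 bases before the start. Gstm5, the mu gene whose level changed least, held TGACNNNGC 42 bases before the start, overlapping a GCGTG on the other strand, and another GCGTG 171 bases before the start. In Gsta3 the TGACNNNGC lay 121 bases before the start. The Gstm7 stretch held neither core: its TGACNNNGC lay 74 bases after the start shown and 129 bases before another RefSeq start of the gene, at chr3:107931725-107931753 on the minus strand with 10 bases on either side.
Gstm7 match: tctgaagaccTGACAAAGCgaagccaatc
A match is a run of letters and not a site shown to be bound, and the absence of a match applies to these windows alone.

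Glutathione transferases made up 65.2 ± 5.12% of the summed RPKM of all 75 genes at PND2 and 68.1 ± 2.88% at 4 months (SD, n = 3), and their sum went from 649 ± 23.0 to 1596 ± 241 RPKM. Of the 20 tested, 15 were called higher at 4 months and none lower. The mu class (Gstm), a set of 7 cytosolic enzymes encoded side by side on chromosome 3 that conjugate electrophilic compounds, held most of this difference, with a summed level of 262 ± 24.6 RPKM at PND2 and 914 ± 187 RPKM at 4 months. The levels of Gstm1 were 102, 69.1 and 92.1 RPKM in the PND2 libraries and 709.9, 441 and 527 RPKM at 4 months. Each adult library stood far above each newborn library, and the mean was 6.38-fold higher (log2 fold change 2.66, SE 0.21, limma adjusted p = 0.000194). Gstm1 alone went from 13.5 ± 2.39% to 34.7 ± 3.21% of the summed glutathione transferase RPKM. Part of its sequence is not its own: 20.1% of its runs of 47 bases occur in other genes, most of them in the pseudogene Gstm2-ps1, whose RPKM went from 84.1 to 507, so reads may have been counted at both.

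Gstm2 was at 64.3, 53.5 and 60.8 RPKM at PND2 and at 217.0, 153 and 171 RPKM at 4 months, without overlap and 3.03-fold higher (log2 fold change 1.59, limma adjusted p = 0.000339). All 15 annotated exons of Gstm1 and all 16 of Gstm2 that had reads were higher in every 4 month library than in any PND2 library. Over all exons with reads, 13.7% were higher in this way and 23.2% lower. Annotated exons of a gene can share bases, so here and below their counts are not independent. Gstm3 (2.63 ± 1.24 to 12.1 ± 3.86 RPKM), Gstm4 (11.5 ± 2.79 to 28.1 ± 5.99 RPKM), Gstm6 (3.12 ± 0.606 to 9.34 ± 2.54 RPKM) and Gstm7 (13.4 ± 1.54 to 32.5 ± 7.21 RPKM) were also called higher, with log2 fold changes of 2.21, 1.29, 1.54 and 1.25. Of their exons with reads, 3 of 6, 2 of 13, 13 of 22 and 10 of 15 were higher without overlap. Gstm3 shares 30.0% of its 47-base runs with other genes. The exception was Gstm5, at 85.9, 84.6 and 82.9 RPKM at PND2 and 92.3, 87.6 and 97.5 RPKM at 4 months. Its adult values all lay just above the newborn ones, but the log2 fold change was 0.13 with a 95% interval of -0.06 to 0.32 (limma adjusted p = 0.264), and 2 of its 26 exons with reads showed non-overlapping higher values. Its share of the summed mu class fell from 32.4% to 10.4%. None of its 47-base runs occur in another gene, though 13.9% of its exonic bases are overlapped by an antisense gene, and whether strand was used in counting is not stated.

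**Figure D2:**
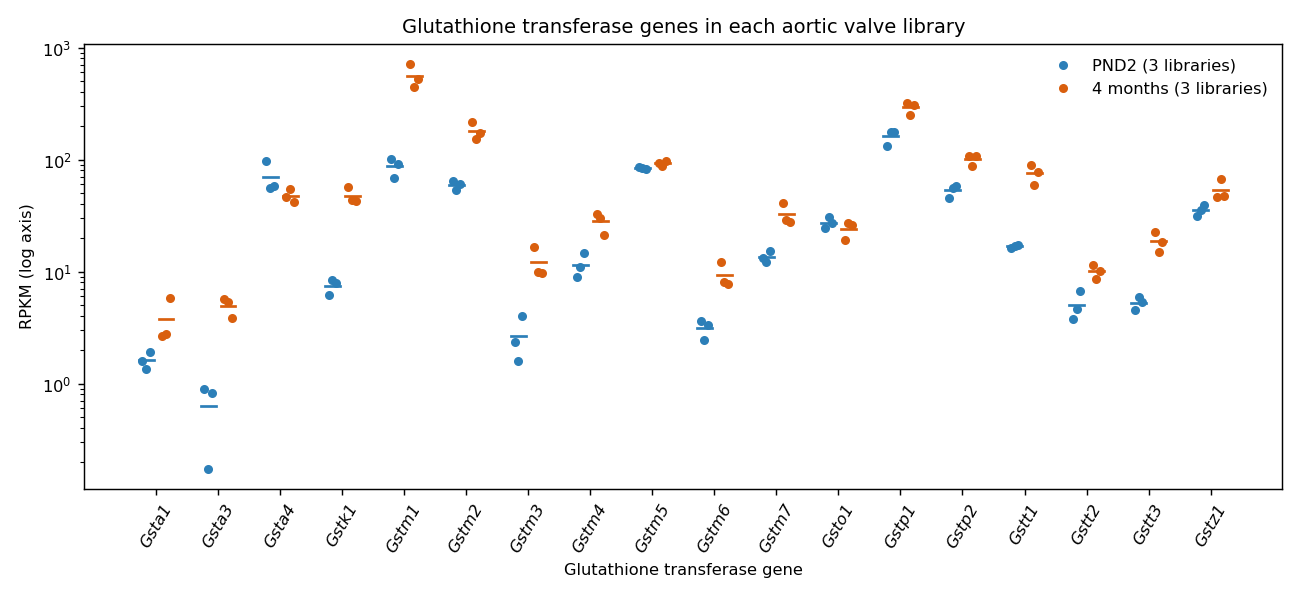
RPKM on a log axis of 18 glutathione transferase genes in each library, with PND2 in blue, 4 months in orange, 1 point per library and short lines at the arithmetic means of 3 libraries. Gstm1 and Gstk1 separate widely between the ages, Gstm5 and Gsto1 lie side by side, and Gsta4 is the gene whose orange points lie below the blue ones.

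The pi class enzymes are among the most abundant glutathione transferases outside the liver. Gstp1 was at 132, 178 and 176 RPKM at PND2 and 322, 249 and 309 RPKM at 4 months, which was non-overlapping and 1.81-fold higher (limma adjusted p = 0.0055). Gstp2 went from 52.9 ± 6.39 to 101 ± 11.9 RPKM (log2 fold change 0.93). Of the 47-base runs of Gstp1, 34.3% occur in Gstp2, and 55.0% of those of Gstp2 occur in other genes, so reads could not be assigned to either with certainty.

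The kappa, theta and zeta classes hold few genes. Gstk1, the kappa class enzyme of mitochondria and peroxisomes, had 6.11, 8.39 and 7.93 RPKM at PND2 and 57.0, 43.1 and 42.4 RPKM at 4 months. The lowest adult value was several times the highest newborn value, the mean was 6.35-fold higher (log2 fold change 2.65, SE 0.17, limma adjusted p = 8.51e-05), and all 22 exons with reads moved the same way. Gstt1, a theta class enzyme that acts on small halogenated compounds and epoxides, was tightly grouped at PND2 with 16.4, 17.0 and 17.2 RPKM and reached 89.5, 59.0 and 77.0 RPKM at 4 months, 4.46-fold higher (log2 fold change 2.13, limma adjusted p = 0.000132). Its neighbours Gstt2 (5.04 ± 1.48 to 10.1 ± 1.46 RPKM) and Gstt3 (5.26 ± 0.738 to 18.6 ± 3.80 RPKM) were called higher too. Of the exonic bases of Gstt3, 19.9% also belong to Gm20441 on the same strand, which went from 16.6 to 42.0 RPKM. Gstz1, the zeta class enzyme of tyrosine breakdown, went from 35.2 ± 4.14 to 53.6 ± 11.3 RPKM (log2 fold change 0.59, limma adjusted p = 0.0269), a call that was lost when PND2 replicate 1 or 2 was left out (adjusted p = 0.0724 and 0.0662). Pomt2 on the opposite strand overlaps 8.29% of its exonic bases.

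The alpha class was divided. Gsta3, which conjugates aflatoxin epoxide in the mouse, had 0.897, 0.173 and 0.826 RPKM at PND2 and 5.69, 5.35 and 3.86 RPKM at 4 months, 7.85-fold higher (log2 fold change 2.98, SE 0.51, limma adjusted p = 0.00407). Gsta1 was called higher at a low level (1.62 ± 0.298 to 3.74 ± 1.77 RPKM, limma adjusted p = 0.0405), but 91.0% of its 47-base runs occur in other genes and leaving out any 1 library other than 4 months replicate 1 took the call away (adjusted p up to 0.108). Of its 12 exons with reads, 2 were higher without overlap. Gsta2, with 52.1% shared, was at 0.915 and 1.77 RPKM and not called by limma, but it was called without PND2 replicate 3 (log2 fold change 1.71, limma adjusted p = 0.0243). Gsta4, specialised for hydroxynonenal and other aldehydes from lipid peroxidation, ran the other way, with 97.5, 56.2 and 57.9 RPKM at PND2 and 46.7, 54.3 and 41.4 RPKM at 4 months. The groups did not overlap, PND2 replicate 1 was far above the rest, and the log2 fold change of -0.53 (95% interval -1.05 to -0.01) was not called (limma adjusted p = 0.104). Its share of the summed glutathione transferase RPKM was 10.9% at PND2 and 3.04% at 4 months. The omega class enzyme Gsto1, a thiol transferase that can reduce dehydroascorbate, stood at 27.3 ± 3.03 and 24.2 ± 4.28 RPKM (log2 fold change -0.18, 95% interval -0.55 to 0.18), and Gsto2 stayed under 1 RPKM. Neither omega gene was called by limma, by voom or by a per-gene unequal-variance test, and none of the 2 had an unadjusted p under 0.05 in these.

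Carboxylesterases split by class. The Ces1 genes lie side by side on chromosome 8 and encode enzymes of the endoplasmic reticulum and lipid droplet, and their summed level went from 0.499 ± 0.233 RPKM at PND2 to 76.1 ± 26.8 RPKM at 4 months. At 4 months nearly all of it was Ces1d, a triglyceride hydrolase of liver and fat cells. Its levels were 0.390, 0.0968 and 0.418 RPKM at PND2, from 36, 7 and 29 reads, and 51.4, 93.7 and 58.9 RPKM at 4 months, from 4551, 5285 and 4038 reads. Every adult library stood far above every newborn library, the mean was 225-fold higher (log2 fold change 7.48, SE 0.41, limma adjusted p = 4.76e-05), and all 22 exons with reads showed it. This was the largest log2 fold change among the 52 genes, and Ces1d went from 1.92 ± 1.20% to 62.4 ± 6.37% of the summed carboxylesterase RPKM.

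Other Ces1 genes were low in the adult and close to absent in the newborn valve. Ces1f, a relative of Ces1d that also acts on triglyceride, had 3, 0 and 0 reads at PND2 and 2.22, 7.93 and 2.26 RPKM at 4 months, with 4 months replicate 2 well above the other 2. The reads per library total were 405-fold higher, with an exact 95% interval of 138 to 1966 that covers counting error only, and 242-fold without 4 months replicate 2 (82.4 to 1179). Its log2 fold change was 5.04 (limma adjusted p = 0.000534). Ces1g and Ces1h had no reads at PND2 and were at 1.63 ± 0.468 and 1.13 ± 0.417 RPKM at 4 months, at least 42.0-fold and 13.8-fold higher when each PND2 library is placed at 3 reads. For Ces1b, also without PND2 reads, the bound was 8.06-fold and the adult level 0.380 RPKM, and 13.1% of its 47-base runs occur in other genes. Ces1a had 1 read at PND2 and 69 at 4 months, a ratio of 75.6 with an interval of 13.1 to 3030. With Ces1d, these were the 6 Ces1 genes called higher. All of them but Ces1d met the minimum for testing through the 4 month libraries alone, so no lower call was open to them. Ces1e was not (0.179 and 0.216 RPKM), and Ces1c had 1 read at PND2 and 0.191 RPKM at 4 months, below the minimum for testing.

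Like the macrophage and smooth muscle markers given above, adipocyte markers were higher at 4 months. Summed over 10 genes, they were at 176, 88.3 and 102 RPKM at PND2 and at 492, 1586 and 467 RPKM at 4 months, 7 of the 9 tested were called higher and none lower, and Cidec, Lep and Retn were at 0 in every PND2 library. The 4 months replicate 2 library held the highest value of Ces1b, Ces1d, Ces1f, Ces1g and Ces1h as well as of the marker sum. Ces1a was highest in 4 months replicate 3 (0.489 RPKM, against 0.424 RPKM in replicate 2). At PND2 the marker sum was highest in replicate 1 (176 RPKM) and Ces1d in replicate 3 (0.418 RPKM). The part of fat cells in the Ces1 levels was not tested. With each library left out in turn, the fold of mean Ces1d levels ran from 168 to 280.

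**Figure D3:**
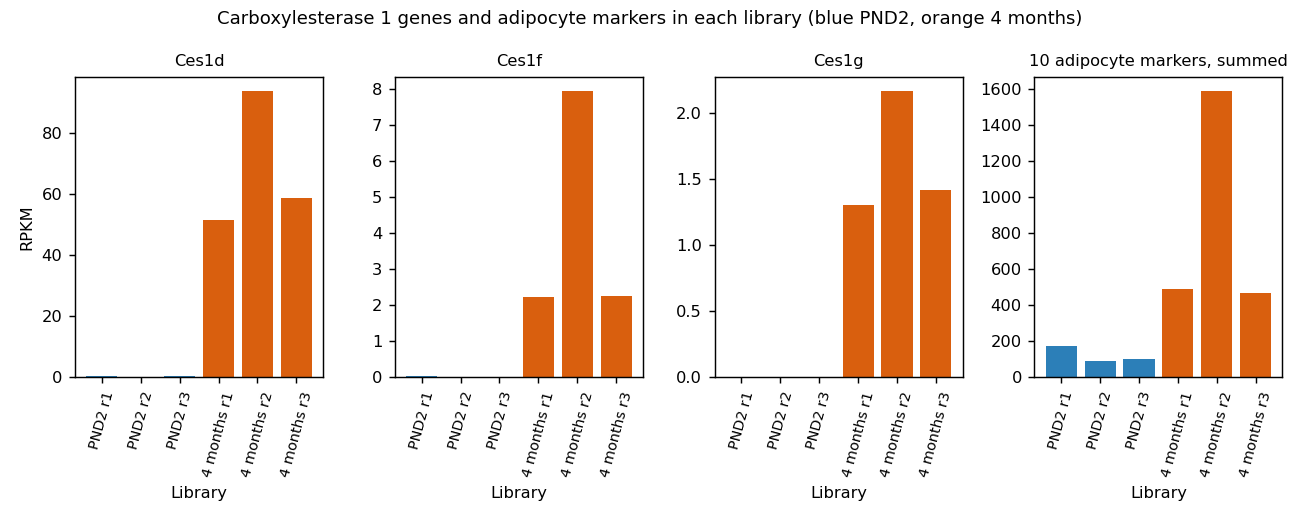
RPKM of Ces1d, Ces1f and Ces1g and the summed RPKM of 10 adipocyte markers in each library, with PND2 in blue, 4 months in orange and each bar 1 library (r1 to r3, the replicates). In all 4 panels the bar of 4 months replicate 2 is the tallest, and the PND2 bars of the Ces1 genes are at or near 0.

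The Ces2 class, which favours esters with a small acyl group, was already expressed at birth through Ces2g. It had 11.8, 15.0 and 13.2 RPKM at PND2 and 31.8, 26.9 and 24.0 RPKM at 4 months, without overlap and 2.07-fold higher (log2 fold change 1.04, limma adjusted p = 0.0018). Ces2g made up 81.7 ± 5.96% of the summed carboxylesterase RPKM at PND2 and 26.6 ± 7.43% at 4 months, so Ces1d took its place as the leading carboxylesterase. Ces2b was called higher at a low level (0.147 ± 0.0978 to 0.495 ± 0.0932 RPKM, 3.37-fold, limma adjusted p = 0.0337). That call was lost without any 1 library other than PND2 replicate 2 (adjusted p up to 0.101), and without PND2 replicate 2 the fold was 5.48. The other tested Ces2 genes, Ces2c, Ces2d-ps, Ces2e, Ces2f and Ces2h, had means of 0.155 to 0.692 RPKM at PND2 and 0.354 to 1.13 RPKM at 4 months and were not called by limma. Ces2c was called with voom (adjusted p = 0.0495) and by limma without PND2 replicate 1 (adjusted p = 0.0283). Of the 47-base runs of Ces2c, 38.0% occur in other genes, as do 78.4% of those of Ces2d-ps and 11.2% of those of Ces2b, so their low values are uncertain. Ces5a was at 0.168 and 0.0874 RPKM and not called by limma.

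The flavin-containing monooxygenases oxidise nitrogen and sulfur in drugs and in metabolites. Their summed level was 135, 52.2 and 73.8 RPKM at PND2 and 320.3, 219 and 240.2 RPKM at 4 months. Fmo2, the form best known from the lung, was the most abundant at both ages, with 63.0% of the sum at PND2 and 71.1% at 4 months. It was at 90.4, 29.8 and 47.9 RPKM at PND2 and 242, 151 and 166 RPKM at 4 months. The newborn libraries were spread widely, with replicate 1 the highest, but they did not overlap with the adult ones, and the mean was 3.32-fold higher (log2 fold change 1.85, SE 0.38, limma adjusted p = 0.00923). Of its 24 exons with reads, 23 showed non-overlapping higher values.

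Fmo5, which inserts oxygen next to carbonyl groups, had 5.16, 3.20 and 3.63 RPKM at PND2 and 16.6, 15.3 and 11.1 RPKM at 4 months, 3.59-fold higher without overlap (limma adjusted p = 0.00121). Fmo6 had 5 reads over the PND2 libraries and 79 over the 4 month libraries, a ratio of 17.3 with an interval of 7.12 to 54.8, and was called higher (limma adjusted p = 0.00742). It met the minimum for testing through the 4 month libraries alone, so no lower call was open to it.

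Fmo1 and Fmo4 did not follow. Fmo1 was at 32.9, 17.1 and 20.2 RPKM at PND2 and 28.4, 27.5 and 22.9 RPKM at 4 months, overlapping and not called (log2 fold change 0.22, 95% interval -0.34 to 0.77, limma adjusted p = 0.516). Without PND2 replicate 1 its log2 fold change was 0.49 and it passed the threshold (adjusted p = 0.039). Fmo4 had 2.17 ± 1.15 and 1.15 ± 0.156 RPKM (log2 fold change -0.76, adjusted p = 0.144 by limma). Fmo1, Fmo2, Fmo4 and Fmo5 had their highest newborn value in PND2 replicate 1, as did Gsta4 and Sult1a1, the summed hepatocyte markers (241 RPKM, against 136 and 153 RPKM in the other PND2 libraries) and the summed adipocyte markers. So did Gstm1, Gstm2, Gstm5, Gstm6, Gsta3 and Aox3, while Gstp1, Ephx1 and Aox1 were highest in PND2 replicate 2. The part of the makeup of PND2 replicate 1 in these values was not tested.

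**Figure D4:**
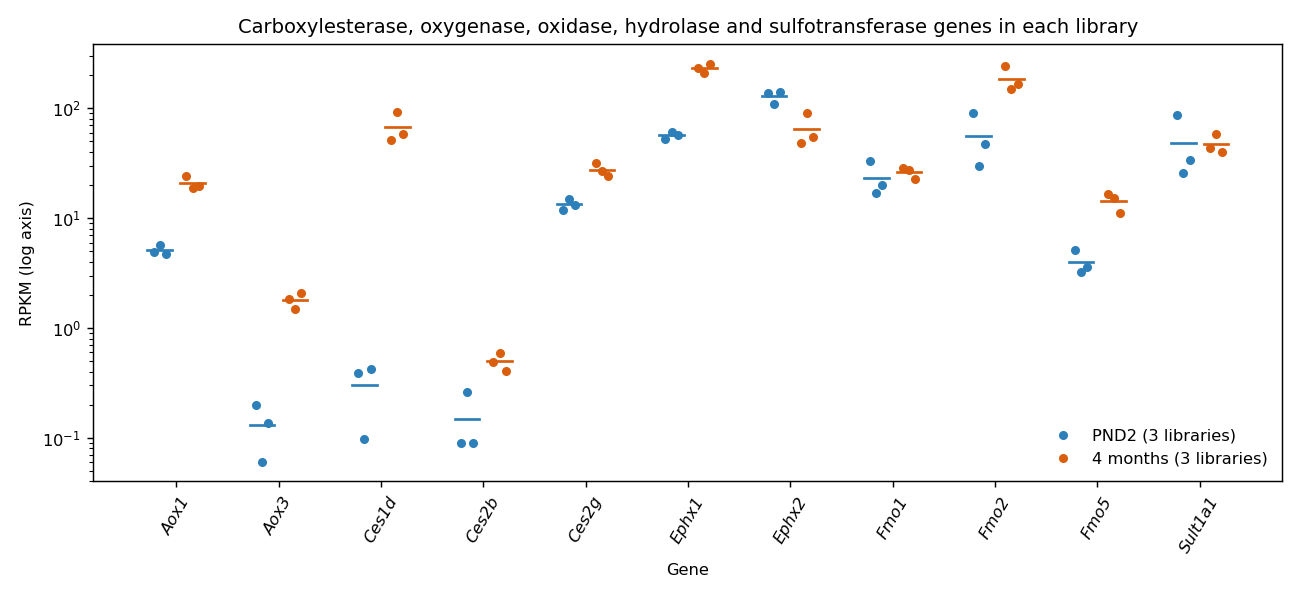
RPKM on a log axis of genes of the other 5 families that had reads in all 6 libraries and either a mean of at least 5 RPKM or a call with a fold over 2, with PND2 in blue, 4 months in orange, 1 point per library and lines at the arithmetic means. Ces1d and Aox3 separate by more than the height of 1 decade between means, Ephx1 and Ephx2 cross over, and Fmo1 and Sult1a1 overlap.

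Aldehyde oxidases use a molybdenum cofactor to oxidise aldehydes and nitrogen heterocycles, and 4 genes for them lie side by side on chromosome 1. Aox1 had 4.89, 5.71 and 4.72 RPKM at PND2 and 24.4, 18.9 and 19.6 RPKM at 4 months. The groups were tight and far apart, with a 4.10-fold higher mean (log2 fold change 2.01, SE 0.15, limma adjusted p = 0.000142) and all 50 exons higher in every adult library. Aox3, the form abundant in mouse liver, was at 0.197, 0.0606 and 0.136 RPKM at PND2 and 1.83, 1.48 and 2.07 RPKM at 4 months, 13.7-fold higher (log2 fold change 3.07, limma adjusted p = 0.000725). Aox2 and Aox4 stayed under 0.1 RPKM in every library.

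The 2 main epoxide hydrolases exchanged places. Ephx1, the microsomal enzyme that opens epoxides of foreign compounds, was at 53.2, 60.4 and 56.9 RPKM at PND2 and 232, 212 and 255 RPKM at 4 months. These were among the tightest groups of all, with a 4.10-fold higher mean (log2 fold change 2.03, SE 0.10, limma adjusted p = 3.49e-05), and 13 of 14 exons with reads were higher. Ephx2, the soluble enzyme that hydrolyses epoxides of fatty acids which widen blood vessels, was at 138, 111 and 142 RPKM at PND2 and 47.9, 91.8 and 55.0 RPKM at 4 months. All newborn values lay above all adult values, with 4 months replicate 2 the nearest, and the log2 fold change was -1.05 (SE 0.24, limma adjusted p = 0.0132). Without 4 months replicate 3 the adjusted p was 0.0521, and a per-gene unequal-variance test gave 0.138. With each library left out in turn its log2 fold change ran from -1.33 to -0.87, and with the libraries scaled to their medians it was -0.93. Of 19 exons with reads, 15 were lower without overlap, and no 47-base run of Ephx2 occurs in another gene. The ratio of Ephx1 to Ephx2 was 0.384, 0.545 and 0.402 in the newborn libraries and 4.84, 2.31 and 4.63 in the adult ones, so Ephx2 led in every PND2 library and Ephx1 in every 4 month library. Ephx3 (0.259 and 0.452 RPKM) and Ephx4 (0.442 and 0.467 RPKM) were low and not called by limma.

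Sulfotransferases, which attach sulfate to phenols, steroids and alcohols, were for the most part not detected. Of the 19 genes, 12 had no reads (Sult1b1, Sult1c1, Sult1c2, Sult3a1 and the 8 genes Sult2a1 to Sult2a8), where 3 reads in each library of an age would have given a mean of 0.0333 to 0.139 RPKM. Sult1a1, the phenol sulfotransferase, carried most of the summed level of the family. It was at 86.3, 26.0 and 34.0 RPKM at PND2 and 43.4, 58.0 and 40.4 RPKM at 4 months. The groups overlapped, PND2 replicate 1 held the highest value and the other newborn libraries the lowest, and the log2 fold change was 0.14 with a 95% interval of -0.83 to 1.10 (limma adjusted p = 0.826). Without PND2 replicate 1 it was 0.65 and passed the threshold (adjusted p = 0.0474), and without PND2 replicate 2 it was -0.21. These libraries therefore set no direction for Sult1a1. Sult5a1 was at 4.70 ± 0.909 and 3.33 ± 1.72 RPKM (log2 fold change -0.61, adjusted p = 0.272 by limma), and Sult2b1, Sult4a1 and Sult6b1 stayed under 1 RPKM. None of the 5 tested genes was called by limma, by voom or by the unequal-variance test, against 35.8% of all genes called in either direction, and at an unadjusted p under 0.05 there were 0, 1 and 0.

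The genes that supply, regulate and follow these enzymes were counted in 10 lists with 127 genes, of which 126 were in the table (Sts was not matched) and 111 were tested. Of these, 51 were called higher at 4 months and 12 lower by limma (45.9% and 10.8%, against 14.7% and 21.1% of all genes tested), and the median log2 fold change was 0.42. The 12 lower calls became 7, 5 and 6 without PND2 replicate 2, PND2 replicate 3 or 4 months replicate 3, and 6 with the libraries scaled to their medians. A per-gene unequal-variance test called 19 higher and 3 lower. Among the 15 genes of glutathione supply and the Nrf2 response, 6 were higher and 3 lower (40.0% and 20.0%). The median log2 fold change of this list was -0.006, against -0.14 over all genes tested. Ggt7, a relative of the enzymes that break down glutathione outside the cell (2.34 to 5.74 RPKM), Srxn1, which repairs peroxiredoxins (8.97 to 21.1 RPKM), and Ggct, which acts on gamma-glutamyl dipeptides (0.683 to 1.70 RPKM), had the largest rises. Nfe2l2, which encodes Nrf2 itself, went from 39.5 to 63.2 RPKM (log2 fold change 0.69, limma adjusted p = 0.00795), and its inhibitor Keap1 stood at 19.1 and 18.8 RPKM (adjusted p = 0.98 by limma). Both were chosen after their values were seen. Of 10 tested membrane glutathione transferases and relatives, 4 were higher, among them Mgst1 (30.9 to 74.6 RPKM), the leukotriene synthase Ltc4s (2.74 to 11.8 RPKM) and Clic4 (113 to 221 RPKM), and 2 were lower.

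**Figure D5:**
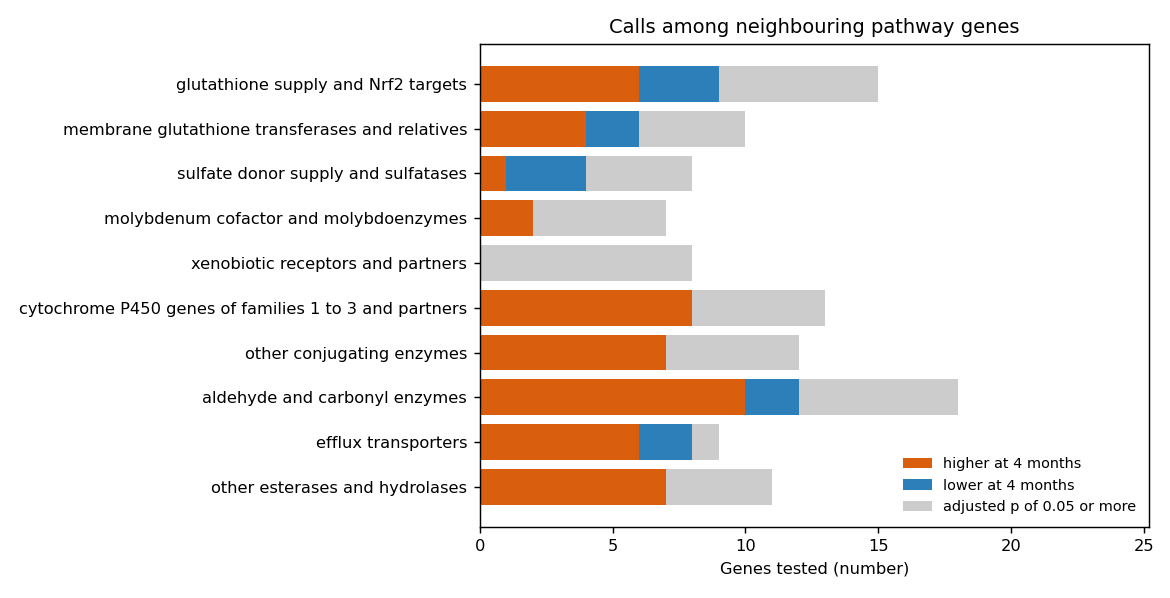
Number of tested genes in each of 10 lists of genes next to these enzymes in metabolism, split into those called higher at 4 months (orange), lower (blue) and not called (grey) by limma at an adjusted p under 0.05. The lists of aldehyde and carbonyl enzymes (10 higher), cytochrome P450 genes (8 higher), other conjugating enzymes and other esterases (7 higher each) hold the most rises by number. By share the efflux transporters hold the most (6 of 9 higher), and no gene of the receptor list was called.

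Enzymes of neighbouring reactions were counted in 4 of the lists. In the order given below, 61.5%, 55.6%, 58.3% and 63.6% of their tested genes were called higher, against 14.7% of all genes tested. Lower calls made up 11.1% of the aldehyde and carbonyl list and none of the others, against 21.1%. Of 13 tested cytochrome P450 genes and partners, 8 were higher and none lower. Cyp2e1, which oxidises ethanol and other small molecules, was at 0.758, 0.986 and 0.804 RPKM at PND2 and 118, 147 and 77.1 RPKM at 4 months (log2 fold change 6.87, limma adjusted p = 1.38e-05). Cyp2f2 (0.0605 to 3.36 RPKM, 55.5-fold, 35.2-fold without 4 months replicate 2) and Cyp2j9 (1.38 to 3.24 RPKM) were the other 2 with the largest rises. Of 18 aldehyde and carbonyl enzymes, 10 were higher and 2 lower. The mitochondrial aldehyde dehydrogenase Aldh2 went from 35.8 to 173 RPKM, Aldh3a1 from 0.792 to 7.03 RPKM, and Cbr2, a carbonyl reductase known from the lung, from 34.9 ± 4.06 to 415 ± 122 RPKM. Of 12 other conjugating enzymes, 7 were higher, including the methyltransferases Inmt (0.0549 to 38.0 RPKM, 691-fold, and 3555-fold without PND2 replicate 2, which held most of its newborn reads) and Hnmt (2.38 to 11.8 RPKM) and the glucuronosyltransferase Ugt1a6a (1.72 to 6.35 RPKM), whose reads cannot be told apart from those of the Ugt1a genes that share its exons. Of 11 other esterases and hydrolases, 7 were higher, with Pon1 (0.0460 to 4.77 RPKM, 104-fold, and 162-fold without PND2 replicate 2), the hormone-sensitive lipase Lipe (5.47 to 19.1 RPKM) and the monoglyceride lipase Mgll (17.1 to 48.0 RPKM) rising most.

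Export and cofactor genes gave a mixed picture. Of 9 efflux transporters, 6 were higher and 2 lower (66.7% and 22.2%, against 14.7% and 21.1% of all genes tested). Abcb1a (2.48 to 10.8 RPKM), Abcb1b (2.32 to 6.64 RPKM) and Abcc1 (7.43 to 21.0 RPKM), pumps that carry drugs and glutathione conjugates out of cells, rose most. Of 7 genes for the molybdenum cofactor and the enzymes that use it, 2 were called, both higher (28.6%, against 35.8% of all genes called in either direction). They were Mocos, which adds the sulfur that aldehyde oxidases need (0.728 to 5.41 RPKM, log2 fold change 2.81, limma adjusted p = 0.00083), and Xdh, the xanthine oxidoreductase related to Aox1 (8.01 ± 7.37 to 40.4 ± 0.495 RPKM, 5.05-fold, and 10.7-fold without PND2 replicate 1). In the list for sulfate donor supply, 1 of 8 was higher and 3 lower (12.5% and 37.5%, against 14.7% and 21.1% of all genes tested). Papss2, which makes the sulfate donor, went from 20.0 to 34.6 RPKM (adjusted p = 0.0184 by limma, 0.0667 without 4 months replicate 3), and its Golgi carriers Slc35b2 (37.2 to 27.5 RPKM, not called without PND2 replicate 3) and Slc35b3 (19.7 to 9.70 RPKM) fell. Of 8 tested xenobiotic receptors and partners, none was called by limma or by the unequal-variance test, and 1 had an unadjusted p under 0.05 in each. With voom 2 had an unadjusted p under 0.05, and 1 was called, Rxra, at an adjusted p of 0.0349 (0.0524 by limma, 22.5 and 29.8 RPKM). Ahr, the aryl hydrocarbon receptor, was at 3.72 and 3.02 RPKM (adjusted p = 0.224 by limma). Rxra and Ahr were named after their values were seen. Genes on the opposite strand overlap 26.1% of the exonic bases of Ltc4s, 15.6% of Lipe, 13.5% of Cyp2f2, 10.9% of Keap1 and 10.1% of Abcb1a, so their values are uncertain. For the xenobiotic receptor gene Nr1i3 this overlap was 74.9%.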

How the data were processed

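RNA of aortic valves was made into stranded libraries, 3 per age, and sequenced. Per the labels and the study's methods, the authors used TopHat2 2.1.0 for alignment to mm10, then easyRNASeq in R 3.2.2 for counting on Ensembl annotation, and deposited RPKM, not counts, for genes and for exons. Whether the totals count reads or pairs, and whether counting used strand, is not stated.

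RPKM times exonic length and library total gave whole reads (within 0.01) for 100% of gene values. These reads summed to 2.31 to 2.36 times the totals, so 1 read may stand at several genes. The main test was limma 3.58.1 (R 4.3.3, with data.table, version 1.17.8) with eBayes and a trend on log2(RPKM + 0.1), 2-sided, for genes with at least 0.1 RPKM in 3 libraries. Folds on this scale understate the change of low genes, and those given as "-fold" are ratios of mean RPKM. Genes without PND2 reads were placed at 3 reads per library for bounds, and ratios of few reads carry exact 95% intervals from the binomial distribution. Both cover counting error only, and the intervals take reads as independent. Runs of 47 bases shared between genes were counted in GENCODE M21 transcripts of the same build. Exons were counted as annotated, with entries that can overlap, and were compared by their ranges, without a test. The alternatives were pseudocounts of 1 and 0.01, no filter, at least 1 RPKM, median scaling, no trend, voom on the recovered reads, a per-gene unequal-variance test (the study's form of test, with the filter and scale given here), a replicate block and each library left out in turn. The fit was tested on simulated data. Summaries were made in Python 3.11.15 (pandas 2.3.3, numpy 2.4.6, scipy 1.17.1) and plots in matplotlib 3.10.9.

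Members named with full values had a mean of at least 5 RPKM at either age or a call with a fold over 2. From each neighbouring list the 3 called genes with the largest change and at least 1 RPKM were named. The members and the lists were chosen with earlier results of these data known, so their counts are descriptions. Of the lists of other cell types, melanocyte markers summed to 54.0 to 102 RPKM at PND2 and 33.8 to 57.5 RPKM at 4 months, Schwann cell markers to 15.8 to 31.7 and 44.1 to 51.7 RPKM, and red blood cell markers to 1243 to 1744 and 497 to 1454 RPKM. The labels call the libraries of an age biological replicates, each from pooled valves, and they were taken as such. Values of 1 member are not reported here.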

Additional observations from a re-analysis of the deposited data

How the results depend on the processing

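Of 535 refits of the 36 named members, 500 kept direction and side of the threshold, 30 lost the call, 2 gained it and 3 turned sign. The 3 were those of Sult1a1, not called in any of them, at log2 fold changes of -0.21, -0.02 and -0.02 without PND2 replicate 2, PND2 replicate 3 and 4 months replicate 2. Without PND2 replicate 1 it was 0.65 and passed the threshold. The per-gene unequal-variance test called 18 members higher and 0 lower (17 and 0 with a fold over 2), and 19 pathway genes higher and 3 lower, against 30, 1, 27, 1, 51 and 12. Median scaling gave 0 members lower with a fold over 2 and 6 pathway genes lower, and leaving out the trend gave 7 of the latter. With each replicate left out in turn, members called higher ran from 28 to 30 and lower from 0 to 1, those with a fold over 2 from 24 to 27 and from 0 to 1, and pathway genes from 47 to 51 higher and from 5 to 12 lower. Replicate numbers did not pair the libraries (correlations of their deviations 0.04, -0.06 and -0.16, and 0 of 3 closest to their own number), and a replicate block gave 29 members higher, 26 with a fold over 2, and 47 pathway genes higher and 7 lower. Of exons with reads of the named members, chosen in part for their calls, 66.9% were higher without overlap, against 13.7% of all exons, and 71.8% against 15.6% of those with a mean of at least 1 RPKM. The cause of these shifts was not tested. With 1 read on 1 kb worth 0.0256 to 0.0420 RPKM, the genes under 1 RPKM rest on few reads, and 3 libraries per age leave wide intervals for variable genes such as Sult1a1.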
